A study of Homo sapiens with 32 samples.

Results

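Eph receptors and their ephrin ligands were followed in LNCaP prostate cancer cells through 8 genes that were chosen by name: the receptor genes *EPHA2*, *EPHB2*, *EPHB3*, and *EPHB4*, and the ligand genes *EFNA1*, *EFNA4*, *EFNB1*, and *EFNB2*. They are 8 of the 25498 genes in the deposited table, the choice was made with earlier results of these data known, and 8 of 8 had the 5 counts in 3 libraries or more that a gene needed to be tested, as did 16995 genes in all. LNCaP, which was derived from a prostate cancer metastasis in a lymph node and depends on androgen, was the 1 cell line measured. RNA-seq was run on 8 groups of 4 libraries. One group (FBS) was grown with fetal bovine serum. The other groups were moved to charcoal-stripped serum, which lacks most steroid hormones, and were left without ligand (CSS) or received EGF or NRG-1 at 100 ng/mL for 5 minutes, 1 hour, or 4 hours. EGFR is the receptor for EGF, and NRG-1 acts through HER3 or HER4, all of which can pair with HER2. The labels give no vehicle and no collection time for CSS, so which ligand time it matches is not known. Every ligand comparison shares the same CSS libraries. Each group held 2 replicates in each of 2 batches.

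Eph receptors form the largest family of receptor tyrosine kinases. They bind ephrins on the surface of neighboring cells, and signals run both into the receptor-bearing cell (forward) and into the ephrin-bearing cell (reverse), where they set adhesion, repulsion, and cell sorting. A-class ephrins are held to the membrane by a lipid anchor and bind mainly EPHA receptors, whereas B-class ephrins cross the membrane and bind mainly EPHB receptors. *EPHA2* is widely expressed in epithelia, is often high in carcinomas, and is a known transcriptional target of RAS-ERK signaling.

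The promoters of 3 members are printed because the RNA of *EPHA2* and *EPHB2* rose at different times after the ligands and that of *EFNA4* fell the most. Each line holds the 250 bases before the annotated start in RefSeq (build GRCh38.p14), read 5′ to 3′ on the strand of the gene. They lie at chr1:16156070-16156319 (minus strand) for *EPHA2*, chr1:22710588-22710837 (plus strand) for *EPHB2*, and chr1:155063490-155063739 (plus strand) for *EFNA4*. Capitals mark a match to TGACGTCA in *EPHA2* and, on the opposite strand, to GCGNGGGCG in *EPHB2*.
EPHA2: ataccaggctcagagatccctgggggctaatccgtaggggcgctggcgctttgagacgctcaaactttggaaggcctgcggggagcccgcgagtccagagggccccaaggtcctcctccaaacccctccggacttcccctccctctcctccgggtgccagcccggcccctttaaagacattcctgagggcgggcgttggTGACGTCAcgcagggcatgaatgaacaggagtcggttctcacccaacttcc
EPHB2: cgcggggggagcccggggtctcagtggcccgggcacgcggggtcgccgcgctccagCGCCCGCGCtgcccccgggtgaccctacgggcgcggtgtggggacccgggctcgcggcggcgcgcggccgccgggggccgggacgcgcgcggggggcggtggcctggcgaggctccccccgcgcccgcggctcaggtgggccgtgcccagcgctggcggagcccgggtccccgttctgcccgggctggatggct
EFNA4: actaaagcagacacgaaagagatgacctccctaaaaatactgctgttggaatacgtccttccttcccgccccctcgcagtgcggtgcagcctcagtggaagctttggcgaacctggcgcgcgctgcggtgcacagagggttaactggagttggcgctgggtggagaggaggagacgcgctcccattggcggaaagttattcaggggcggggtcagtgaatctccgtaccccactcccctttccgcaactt
Both strands of the promoters of 8 of 8 members were searched for 6 motifs, with 27305 promoters of the same length for reference. The CRE, TGACGTCA, which CREB and ATF factors bind, was present in 1 member, *EPHA2*, from -51 to -44 relative to the start, and in 1.77% of all promoters. The EGR motif, GCGNGGGCG, was present in *EPHB2* (-194 to -186) and in *EFNA1* (-65 to -57, where it overlaps a GC box), and in 8.25% of all promoters. The GC box, GGGCGG, was present in 8 of 8 members and in 42.3% of all promoters. The AP-1 motif, TGANTCA (6.6% of promoters), the ETS motif, CCGGAAG (8.82%), and the CArG box (1.14%) were present in 0 of the 8. These matches describe the letters in the window and say nothing about occupancy.

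Library totals ran from 63822700 to 92401700 expected counts (median 77866200), and each member had at least 173 counts in every library. The labels number the libraries as biological replicates without stating whether they were separate cultures, and P values therefore measure the spread among these libraries, which may be partly technical. Among prostate luminal markers, *FOLH1* ran from 694.7 to 1639 TPM (a unit normalized for transcript length and library total) over the libraries, *KLK3* from 143 to 2824 TPM, and *HOXB13* from 163 to 389 TPM. The 8 markers of basal, fibroblast, endothelial, and leukocyte cells summed to between 2.40 and 5.18 TPM, mostly *COL1A1* (1.36 to 5 TPM) with *KRT14* at up to 2.17 TPM, and *TP63*, *KRT5*, *DCN*, *PECAM1*, and *CDH5* had at most 3 counts in any library. In bulk RNA, fewer cells that express a gene and less RNA per cell cannot be told apart. Between batches, *EFNB2* was lower in batch 2 by -0.77 on the log2 scale and *EPHB2* by -0.47, whereas *EFNA4* was higher by 0.43 (adjusted P = 5.58e-17, 3.03e-09, and 3.58e-09, edgeR). Each batch held 2 libraries of every group, and the batch was a term in the fit.

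On the TPM scale, which allows comparison between genes, ephrin transcripts were more abundant than Eph receptor transcripts. In CSS the 14 Eph receptor genes summed to 77.5 ± 5.56 TPM (SD, n = 4) and the 8 ephrin genes to 254 ± 28.8 TPM. In CSS the highest mean levels among the ephrins were those of *EFNA1* (86.5 ± 2.22 TPM, 34.3% of the ephrin sum), *EFNB2* (59.9 ± 20.6 TPM, 23.1%), and *EFNA3*, which is no member (49.3 ± 6.21 TPM, 19.4%). *EFNB2* held 73.3 and 81.4 TPM in batch 1 and 45.1 and 39.7 TPM in batch 2, and the latter lay in or under the range of *EFNA3* (40.6 to 54.5 TPM). In FBS batch 1 replicate 1, *EFNB2* exceeded *EFNA1* (80.2 and 66.1 TPM). *EFNA4* stood at 22.8 ± 3.19 TPM, and *EFNB1* at 5.23 ± 0.528 TPM. Among the receptors, *EPHB4* was the most abundant of the 4 members at 14.8 ± 1.40 TPM, followed by *EPHB3* (6.47 ± 0.574), *EPHB2* (3.91 ± 0.698), and *EPHA2* (2.46 ± 0.262). *EPHA6* and *EPHA7*, which are no members, stood at 15.4 ± 0.831 and 15.2 ± 1.68 TPM. Receptors outside the members held 64.3% of the receptor sum in CSS. The member with the lowest level in CSS, *EPHA2*, was also the one whose level varied most over the groups, by 4.32-fold between the highest and the lowest group mean of depth-scaled counts, against 2.36-fold for *EPHB2* and 1.16-fold for *EFNB2*.

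**Figure D1:**
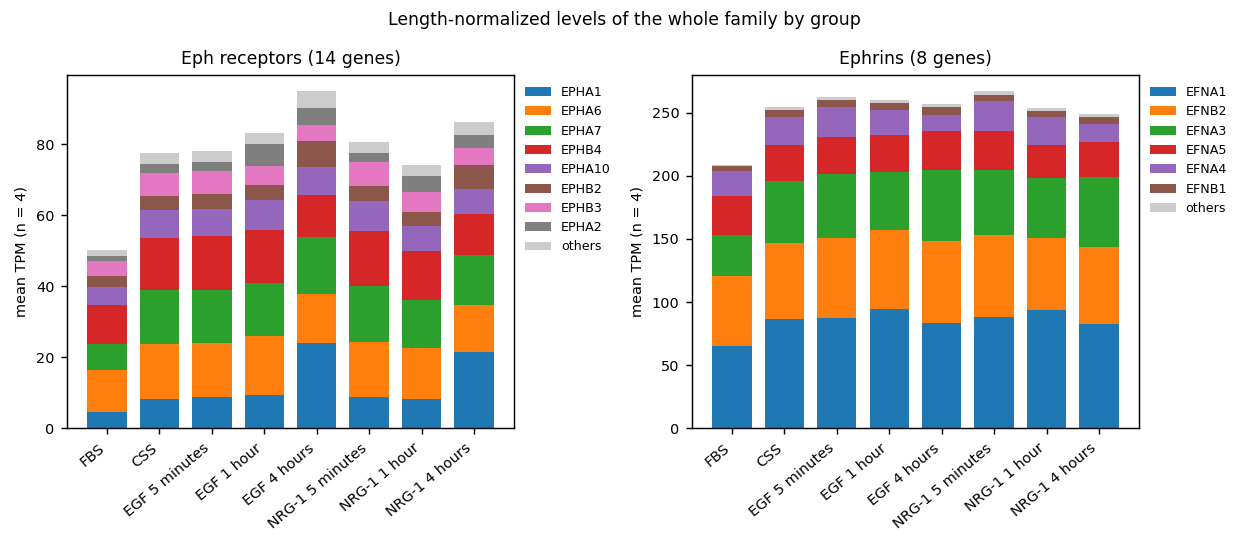
Stacked bars give the mean TPM (n = 4 libraries) of each Eph receptor gene (left, 14 genes) and each ephrin gene (right, 8 genes) in the 8 groups, with the 6 least abundant receptors and the 2 least abundant ephrins pooled as others. The receptor sum was 50.3 TPM in FBS, 77.5 in CSS, and 94.9 at 4 hours of EGF, and the segment of *EPHA1* took 10.7% of the sum in CSS and 25.4% at 4 hours of EGF.

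The composition of the receptor pool shifted with time. The share of *EPHA2* in the summed receptor TPM was 3.18% ± 0.321 in CSS, 7.56% ± 0.914 at 1 hour of EGF, and 4.84% ± 0.292 at 4 hours, and with NRG-1 it was 6.09% ± 0.378 and 4.21% ± 0.229 (SD, n = 4). The lowest of the 4 libraries at 1 hour of EGF held 6.58% and the highest CSS library 3.48%. *EPHB4* moved from 19.1% ± 0.608 in CSS to 12.3% ± 0.867 at 4 hours of EGF and 13.5% ± 0.676 at 4 hours of NRG-1. These shares depend on every gene in the sum and are given as a description, with no test.

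*EPHA2*, the receptor for which ephrin A1 is a main ligand, rose with either ligand at 1 hour. Values are CPM, the counts in each 1000000 of a library total that was scaled by TMM (trimmed mean of M values), listed for batch 1 replicates 1 and 2 and then batch 2 replicates 1 and 2. The CSS libraries held 4.79, 5.17, 6.16, and 5.89 CPM. At 1 hour of EGF the libraries held 12.2, 11.6, 15.8, and 15.2 CPM, and at 1 hour of NRG-1 they held 10.6, 9.86, 12.1, and 9.49 CPM. Every library of either ligand at 1 hour thus lay above every CSS library. The log2 fold change was 1.31 with EGF (SE 0.096, adjusted P = 1.04e-11, edgeR quasi-likelihood test) and 0.94 with NRG-1 (SE 0.096, adjusted P = 2.11e-08), and 4 of 4 same-numbered pairs were higher in each case. Within batches 1 and 2 the EGF change was 1.27 and 1.37, and that of NRG-1 was 1.04 and 0.84.

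At 4 hours *EPHA2* remained raised but had come down from its level at 1 hour. With EGF the libraries held 10.6, 9.85, 12.0, and 10.7 CPM at 4 hours, a log2 fold change against CSS of 0.97 (SE 0.096, adjusted P = 1.36e-09). With NRG-1 they held 9.18, 8.06, 9.39, and 7.84 CPM, a change of 0.66 (SE 0.097, adjusted P = 2.23e-06). Neither set overlapped CSS. Tested directly, 4 hours was lower than 1 hour by -0.34 with EGF (SE 0.093, adjusted P = 0.00355) and by -0.28 with NRG-1 (SE 0.094, adjusted P = 0.0184). The fall with EGF missed the threshold within either batch (-0.24, adjusted P = 0.0625, and -0.43, adjusted P = 0.0737). The fall with NRG-1 missed it within both batches (-0.25, adjusted P = 0.0573, and -0.31, adjusted P = 0.253) and when NRG-1 1 hour batch 1 replicate 1 (adjusted P = 0.0705), NRG-1 1 hour batch 2 replicate 1 (0.0624), or NRG-1 4 hours batch 2 replicate 2 (0.0825) was left out.

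In FBS *EPHA2* was at its lowest, with 3.11, 2.50, 3.89, and 3.19 CPM. Each of these values lay under the lowest CSS library, and the log2 fold change of FBS against CSS was -0.79 (SE 0.10, adjusted P = 1.85e-07), or -0.82 and -0.76 within the batches. At 5 minutes *EPHA2* ran from 4.97 to 6.21 CPM with EGF and from 4.58 to 6.37 CPM with NRG-1, which overlapped CSS, and the fitted changes were -0.03 (95% interval -0.23 to 0.17) and 0.01.

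*EPHB2*, a B-class receptor with a known role in sorting of intestinal epithelium, changed later. In CSS it was at 12.2, 11.9, 9.57, and 9.43 CPM, and at 1 hour the libraries lay between 10.1 and 13.3 CPM with EGF and between 7.83 and 13.3 CPM with NRG-1. At 4 hours they held 25.1, 23.7, 20.2, and 18.0 CPM with EGF and 23.2, 22.2, 17.8, and 13.6 CPM with NRG-1. The groups at 1 hour overlapped CSS, whereas those at 4 hours did not. The log2 fold change against CSS at 4 hours was 1.01 with EGF (SE 0.094, adjusted P = 3.68e-10) and 0.82 with NRG-1 (SE 0.094, adjusted P = 3.11e-08), and within batches 1 and 2 the EGF change was 1.02 and 1.03, and that of NRG-1 was 0.91 and 0.74. Tested directly, 4 hours exceeded 1 hour by 0.89 with EGF (adjusted P = 5.48e-09) and by 0.81 with NRG-1 (adjusted P = 4.59e-08). At 1 hour the changes against CSS were 0.12 (95% interval -0.07 to 0.32) and 0.01.

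The rise of *EPHB2* with EGF lay close to the fold limit that defines a differentially expressed gene (DEG), that is, a gene past 1 or -1 on the log2 scale whose adjusted P value is also below 0.05. It was 0.996 without CSS batch 1 replicate 1, 0.986 without CSS batch 1 replicate 2, and 0.963 without EGF 4 hours batch 2 replicate 1, each under the limit. On log2(TPM + 1), which understates changes of low genes, it was 0.79 in limma. The adjusted P value stayed below 0.05 in 20 of 20 alternatives, and the highest was 0.00143. In FBS, *EPHB2* held 12.0, 10.2, 7.63, and 7.06 CPM, which overlapped CSS, with a change of -0.24 (SE 0.095, adjusted P = 0.0367). This last change missed the threshold within either batch (-0.11, adjusted P = 0.301, and -0.36, adjusted P = 0.146) and without FBS batch 1 replicate 2 (0.0895), FBS batch 2 replicate 1 (0.0674), CSS batch 2 replicate 1 (0.0945), FBS batch 2 replicate 2 (0.102), or CSS batch 2 replicate 2 (0.0792). It also missed the threshold without the batch term (8 of 20 alternatives in all).

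**Figure D2:**
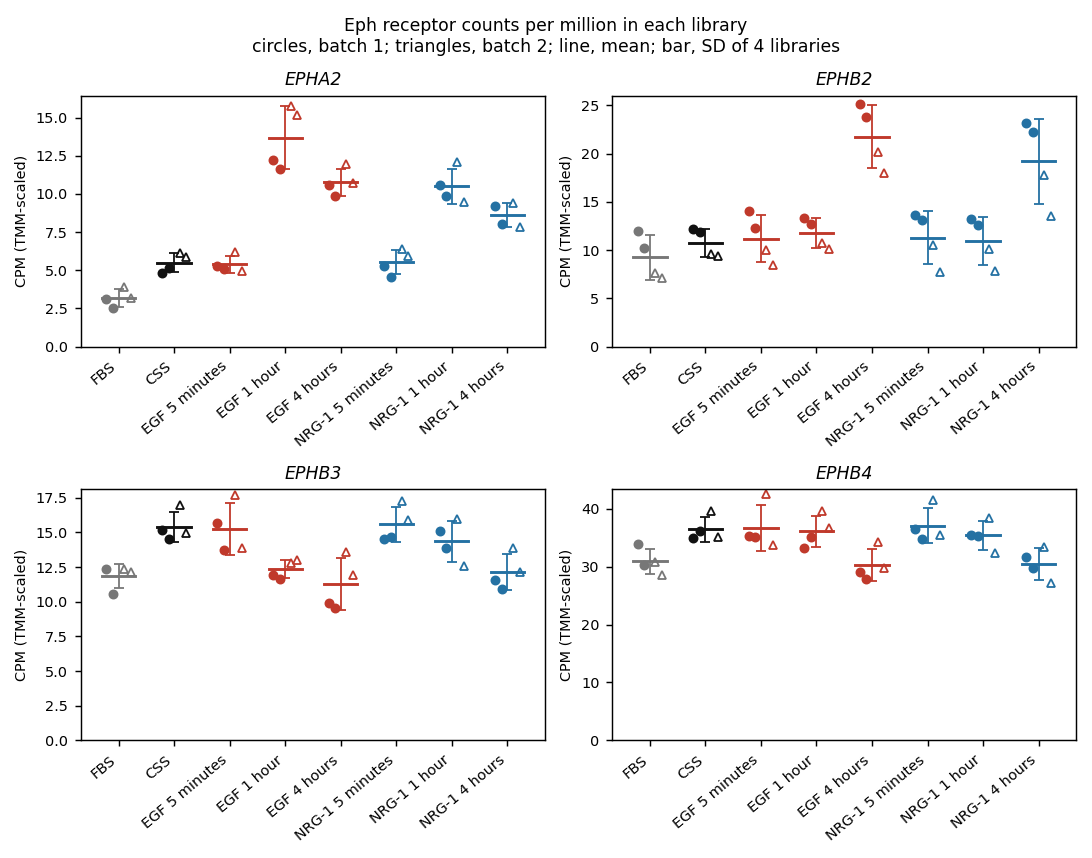
Each panel plots 1 Eph receptor gene in CPM (linear axis from 0) for the 8 groups, with circles for batch 1, triangles for batch 2, a line for the mean, and a bar for the SD of 4 libraries. *EPHA2* was highest at 1 hour of EGF (13.7 ± 2.09 CPM) and lowest in FBS (3.17 ± 0.569), whereas *EPHB2* was highest at 4 hours of EGF (21.7 ± 3.26) and of NRG-1 (19.2 ± 4.42).

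*EPHB3* and *EPHB4* moved the other way. *EPHB3*, which shares B-class ligands with *EPHB2*, was at 15.2, 14.5, 17.0, and 15.0 CPM in CSS. At 1 hour of EGF it was at 12.0, 11.7, 12.8, and 13.0 CPM, and at 4 hours at 9.90, 9.59, 13.6, and 11.9 CPM. All 8 of these libraries lay under the lowest CSS library, and the log2 fold changes were -0.32 (SE 0.084, adjusted P = 0.0114) and -0.46 (SE 0.085, adjusted P = 4.26e-05). With NRG-1 the 1-hour libraries overlapped CSS (12.6 to 16.0 CPM, change -0.10, adjusted P = 0.632), and the 4-hour libraries held 11.6, 10.9, 13.9, and 12.2 CPM (-0.35, SE 0.085, adjusted P = 0.00142). In batch 2 alone these falls had adjusted P values of 0.555, 0.168, and 0.241, with changes of -0.30, -0.30, and -0.28, and in batch 1 alone the changes were -0.32, -0.61, and -0.40. The fall at 1 hour of EGF also missed the threshold without the batch term (adjusted P = 0.0653) and in limma on log2 TPM (0.371 to 0.436). In FBS *EPHB3* ran from 10.5 to 12.4 CPM, again below every CSS library (-0.38, adjusted P = 0.000461; -0.37 in batch 1 and -0.38, adjusted P = 0.0688, in batch 2).

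*EPHB4*, the receptor of ephrin B2 that marks veins in developing vessels, was at 34.9, 36.1, 39.6, and 35.1 CPM in CSS. It was at 29.1, 28.0, 34.2, and 29.8 CPM at 4 hours of EGF and at 31.7, 29.7, 33.4, and 27.1 CPM at 4 hours of NRG-1. The 4-hour libraries of either ligand lay below CSS without overlap, although the nearest libraries were 34.2 and 34.9 CPM. The log2 fold changes were -0.27 (SE 0.079, adjusted P = 0.00563) and -0.26 (SE 0.079, adjusted P = 0.00929), a decrease of 1.20-fold and 1.19-fold. In batch 2 alone they had adjusted P values of 0.411 and 0.245 (-0.20 and -0.29, against -0.32 and -0.21 in batch 1), and in limma on log2 TPM the adjusted P values were 0.0631 to 0.0844 and 0.0563 to 0.0771. At 1 hour the changes of *EPHB4* were -0.01 and -0.04. In FBS it ran from 28.6 to 33.9 CPM, under every CSS library (-0.23, SE 0.079, adjusted P = 0.0137), and this change missed the threshold in batch 1 (-0.14, adjusted P = 0.0710), in batch 2 (-0.32, adjusted P = 0.125), without CSS batch 2 replicate 1 (0.0528), and without FBS batch 2 replicate 2 (0.0512).

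Among the ligands, *EFNA4*, which encodes the lipid-anchored ephrin A4, had the largest change. The CSS libraries held 12.8, 11.1, 15.7, and 16.2 CPM. The 4-hour libraries held 6.78, 7.26, 9.42, and 9.71 CPM with EGF and 7.21, 7.28, 11.0, and 12.0 CPM with NRG-1. With EGF every library lay under CSS, whereas with NRG-1 a batch 2 library exceeded the lowest CSS library, which was of batch 1, and 0 of 4 same-numbered pairs was higher. The log2 fold change was -0.75 with EGF (SE 0.089, adjusted P = 3.72e-08) and -0.59 with NRG-1 (SE 0.088, adjusted P = 2.77e-06), and within batches 1 and 2 the EGF change was -0.77 and -0.71, and that of NRG-1 -0.73 and -0.46. At 1 hour of EGF the libraries held 10.6, 10.8, 12.6, and 13.2 CPM (-0.23, SE 0.087, adjusted P = 0.109), and the adjusted P value was 0.0456 with the replicate number as a block and 0.0231 with only the groups compared in the fit. At 1 hour of NRG-1 and in FBS the changes were 0.01 and -0.01, the latter -0.20 in limma on log2 TPM (adjusted P = 0.0415). Of the 32 deposited values of *EFNA4*, 0% were whole numbers, against 100% for each of the other 7 members. Its reads were thus divided with at least 1 other gene model, and its level is less certain. RefSeq lists readthrough genes that join *EFNA4* to *ADAM15* on one side and to *EFNA3* on the other.

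*EFNB1*, which encodes a transmembrane ephrin linked to craniofacial development, rose with EGF at 4 hours. It was at 9.41, 9.75, 10.4, and 9.13 CPM in CSS, at 13.6, 13.5, 12.1, and 10.6 CPM at 4 hours of EGF, and at 11.9, 11.0, 11.6, and 10.1 CPM at 4 hours of NRG-1. EGF libraries lay above CSS without overlap, and NRG-1 libraries overlapped it. The log2 fold change was 0.36 with EGF (SE 0.093, adjusted P = 0.00206) and 0.20 with NRG-1 (SE 0.094, adjusted P = 0.0827). Under the replicate block the NRG-1 change had an adjusted P value of 0.0184, with only the groups compared 0.0441, and without CSS batch 2 replicate 1 0.0432. The EGF change was 0.49 in batch 1 and 0.24 (adjusted P = 0.316) in batch 2, and limma on log2 TPM gave adjusted P values of 0.130 to 0.167.

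*EFNB2*, the main ligand of *EPHB4*, was the member with the largest difference between batches. Its CSS libraries held 181, 190, 111, and 107 CPM and its libraries at 4 hours of EGF 213, 213, 131, and 124 CPM. The groups overlapped across batches but not within either batch. The log2 fold change was 0.21 (SE 0.066, adjusted P = 0.00784), or 0.20 in batch 1 and 0.25 (adjusted P = 0.190) in batch 2. It missed the threshold without the batch term (adjusted P = 0.628) and in limma on log2 TPM (0.14, adjusted P = 0.399 to 0.465). At 4 hours of NRG-1 the change was 0.10 (95% interval -0.03 to 0.24, adjusted P = 0.223).

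*EFNA1*, a main ligand of *EPHA2* and the most abundant ephrin transcript, did not pass in any comparison. It ran from 64.01 to 75.04 CPM in CSS, from 66.9 to 79.1 CPM at 1 hour of EGF, and from 74.3 to 89.6 CPM at 1 hour of NRG-1, and these ranges overlapped. The change at 1 hour of NRG-1 was 0.18 (95% interval 0.00 to 0.36, adjusted P = 0.287), and at 4 hours the changes were 0.02 (-0.16 to 0.19) and 0.03 (-0.15 to 0.21). In FBS it ran from 54.2 to 70.5 CPM (-0.20, SE 0.087, adjusted P = 0.0521). On TPM this last difference was larger, at 65.5 ± 0.902 TPM in FBS against 86.5 ± 2.22 in CSS (-0.40, adjusted P = 3.31e-08, limma on log2(TPM + 1)), where the median gene differed by -0.09. It also passed under the replicate block (-0.21, adjusted P = 0.00590), in batch 1 alone (-0.25, adjusted P = 0.00821), without CSS batch 2 replicate 1 (0.0419) or FBS batch 2 replicate 2 (0.0313), and with at least 10 counts in every library (0.0362), and was -0.15 in batch 2 (adjusted P = 0.519). On TPM it was also lower at 4 hours than at 1 hour, by -0.18 with either ligand (adjusted P = 0.00172 and 0.00250, limma), where edgeR gave -0.07 and -0.15 (adjusted P = 0.564 and 0.205).

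**Figure D3:**
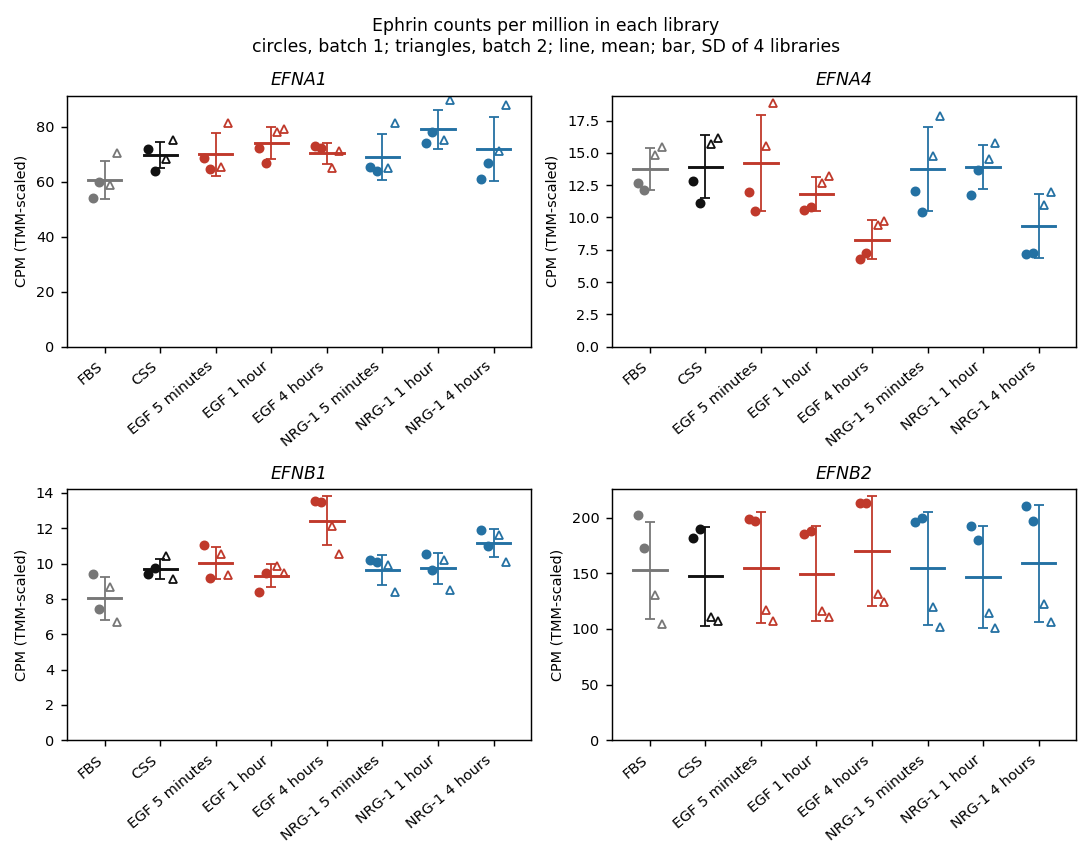
Each panel plots 1 ephrin gene in CPM (linear axis from 0) for the 8 groups, with circles for batch 1, triangles for batch 2, a line for the mean, and a bar for the SD of 4 libraries. *EFNA4* was lowest at 4 hours of EGF (8.29 ± 1.48 CPM against 13.9 ± 2.40 in CSS), and the batches of *EFNB2* formed separate ranges, 172 to 213 CPM in batch 1 and 101 to 131 CPM in batch 2.

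The members were counted at each time beside the share of all genes tested that passed the same threshold. At 5 minutes 0 members differed from CSS with EGF or with NRG-1 (edgeR; 0 and 0 at an unadjusted P value below 0.05, and 0 and 0 with DESeq2), where 0.00588% and 0% of all genes tested passed. At 1 hour of EGF, 1 member was higher (*EPHA2*) and 1 lower (*EPHB3*) at an adjusted P value below 0.05, a threshold that 9.51% of all genes passed (6.00% higher and 3.51% lower), and *EPHA2* was the DEG, where 1.72% of all genes were DEGs. At 1 hour of NRG-1, 1 member was higher (*EPHA2*), where 6.73% of all genes passed (4.45% higher and 2.28% lower). At 4 hours of EGF, 4 members were higher (*EPHA2*, *EPHB2*, *EFNB1*, *EFNB2*) and 3 lower (*EPHB3*, *EPHB4*, *EFNA4*), where 49.2% of all genes passed (24.6% higher and 24.6% lower), and 1, *EPHB2*, was a DEG, where 9.56% were. At 4 hours of NRG-1, 2 were higher (*EPHA2*, *EPHB2*) and 3 lower (*EPHB3*, *EPHB4*, *EFNA4*), where 42.6% passed (21.6% higher and 21.0% lower). With NRG-1, 0 members were DEGs at 1 hour and at 4 hours (edgeR; 2 and 6 at an unadjusted P value below 0.05, and 0 DEGs with DESeq2), where 0.989% and 7.41% of all genes were. In batch 2 alone, with 2 libraries a group, 3 members passed at 4 hours of EGF and 3 at 4 hours of NRG-1. The share of all genes that passed in that fit was not taken, and the 49.2% and 42.6% are no reference for it. The median log2 fold change of the members was 0.11 at 4 hours of EGF and 0.07 at 4 hours of NRG-1, beside -0.02 and -0.01 over all genes tested.

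In FBS, 5 members were lower than in CSS (*EPHA2*, *EPHB2*, *EPHB3*, *EPHB4*, *EFNB1*) and 0 higher, at a threshold that 52.7% of all genes tested passed, 26.0% higher and 26.8% lower. The fold limit was reached by 0 members (edgeR; 6 at an unadjusted P value below 0.05, and 0 DEGs with DESeq2), where 8.71% of all genes were DEGs. The median log2 fold change of the members was -0.24, beside -0.01 over all genes. *EFNB1* had a change of -0.27 (SE 0.095, adjusted P = 0.0191) that missed the threshold within either batch (-0.18, adjusted P = 0.193, and -0.34, adjusted P = 0.118) and without FBS batch 1 replicate 2 (0.0775), CSS batch 2 replicate 1 (0.0840), or FBS batch 2 replicate 2 (0.0889). In batch 1 alone 3 members passed and in batch 2 alone 1 did, with 2 libraries a group. The share of all genes that passed in these fits was not taken.

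**Figure D4:**
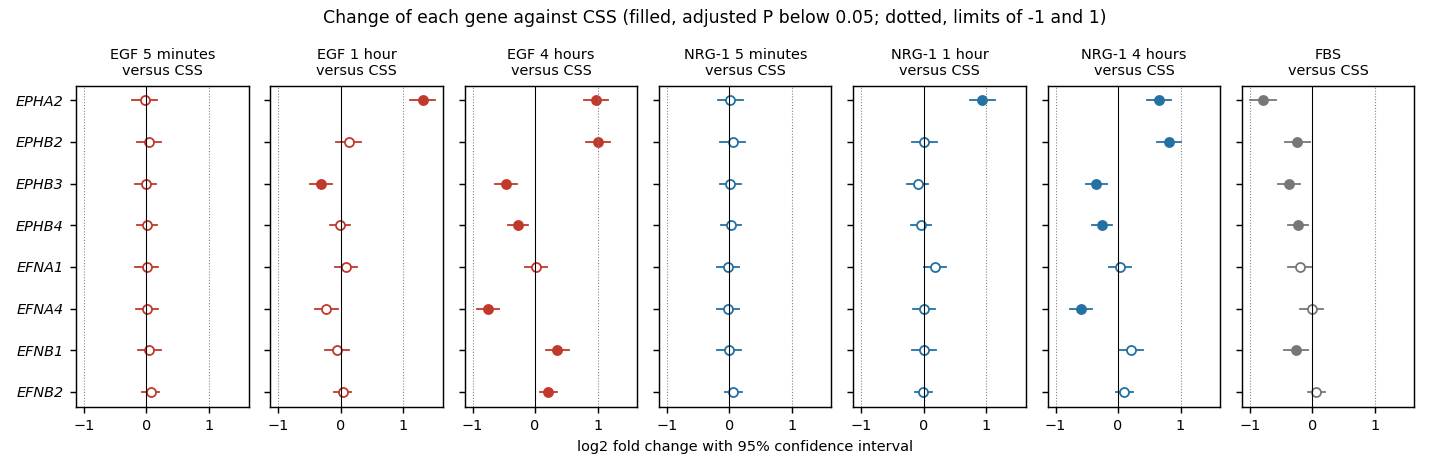
Points give the log2 fold change of each member against CSS for the 6 ligand groups and FBS, with lines for the 95% confidence interval of the edgeR fit, filled points for an adjusted P value below 0.05, and dotted lines at the fold limits of -1 and 1. *EPHA2* moved at 1 hour (1.31 and 0.94), *EPHB2* at 4 hours (1.01 and 0.82), and *EFNA4* fell at 4 hours (-0.75 and -0.59).

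The ligands were also compared with each other. At 1 hour *EPHA2* was higher with EGF than with NRG-1 by 0.37 on the log2 scale (SE 0.093, adjusted P = 0.0404), or 1.29-fold, and it was the 1 member that passed, where 1.06% of all genes did (0.941% higher and 0.118% lower). The EGF libraries ran from 11.6 to 15.8 CPM and the NRG-1 libraries from 9.49 to 12.1 CPM, so that the groups overlapped, although 4 of 4 same-numbered pairs were higher with EGF. This difference was 0.22 in batch 1 (adjusted P = 0.344) and 0.53 in batch 2 (adjusted P = 0.908), and it missed the threshold in 12 of 20 alternatives. Among these were the fits without EGF 1 hour batch 1 replicate 1 (0.0679), NRG-1 1 hour batch 1 replicate 2 (0.0805), EGF 1 hour batch 2 replicate 1 (0.183), EGF 1 hour batch 2 replicate 2 (0.128), or NRG-1 1 hour batch 2 replicate 2 (0.156). At 4 hours *EPHA2* differed by 0.32 (SE 0.094, adjusted P = 0.0942), with EGF libraries from 9.85 to 12.0 CPM and NRG-1 libraries from 7.84 to 9.39 CPM, or 0.24 and 0.40 within the batches (adjusted P = 0.380 and 0.877), and its adjusted P value was 0.00890 under the replicate block, 0.0358 with DESeq2, and 0.0413 without NRG-1 4 hours batch 1 replicate 1. In edgeR 0 members passed at 4 hours (2 at an unadjusted P value below 0.05, and 1 with DESeq2), where 1.66% of all genes did (1.25% higher and 0.412% lower), and 0 passed at 5 minutes (0 unadjusted, 0 with DESeq2; 0% of all genes). The change from 1 hour to 4 hours did not differ measurably between the ligands for any member (0 passed, 0 unadjusted, 0 with DESeq2), where 0.506% of all genes passed (0.153% higher and 0.353% lower) and 0.0824% were DEGs. For *EPHB2* the difference in this change was 0.08 (95% interval -0.19 to 0.35).

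Between 1 hour and 4 hours of EGF, 3 members were higher at 4 hours (*EPHB2*, *EFNB1*, *EFNB2*) and 3 lower (*EPHA2*, *EPHB4*, *EFNA4*), where 44.0% of all genes passed (22.5% higher and 21.5% lower), and 0 members were DEGs (edgeR; 6 at an unadjusted P value below 0.05, and 0 DEGs with DESeq2), where 8.22% were. *EFNB1* rose by 0.41 (adjusted P = 0.000571; 0.59 and 0.25 within the batches, the latter with an adjusted P value of 0.337; 0.114 to 0.148 in limma on log2 TPM), and *EFNA4* fell by 0.52 on the log2 scale (adjusted P = 1.80e-05). *EPHB4* differed by -0.26 (adjusted P = 0.00914; 0.361 in batch 2, and 0.0668 in limma on log2 TPM with no filter). *EFNB2* differed by 0.18 (adjusted P = 0.0254), which missed the threshold in batch 2 (adjusted P = 0.376), without the batch term (0.685), in limma on log2 TPM (0.706 to 0.772), and without EGF 1 hour batch 1 replicate 1 (0.0651), EGF 1 hour batch 1 replicate 2 (0.0555), EGF 4 hours batch 2 replicate 1 (0.0710), EGF 1 hour batch 2 replicate 2 (0.0514), or EGF 4 hours batch 2 replicate 2 (0.0655). *EPHB3* differed by -0.14 (adjusted P = 0.188), by -0.29 in batch 1 (adjusted P = 0.0129), and by -0.22 without EGF 4 hours batch 2 replicate 1 (adjusted P = 0.0386).

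Between 1 hour and 4 hours of NRG-1, 1 member was higher at 4 hours (*EPHB2*) and 4 were lower (*EPHA2*, *EPHB3*, *EPHB4*, *EFNA4*), where 37.5% of all genes passed (19.0% higher and 18.5% lower), and 0 were DEGs (6 unadjusted, 0 DEGs with DESeq2), where 6.79% were. *EFNA4* fell by 0.60 on the log2 scale (adjusted P = 2.59e-06; -0.82 in batch 1 and -0.38, adjusted P = 0.0549, in batch 2). *EPHB3* differed by -0.25 (adjusted P = 0.0216), which missed the threshold in batch 2 (-0.11, adjusted P = 0.742) and without NRG-1 1 hour batch 1 replicate 1 (0.0976), NRG-1 1 hour batch 1 replicate 2 (0.0622), NRG-1 4 hours batch 1 replicate 2 (0.0686), or NRG-1 1 hour batch 2 replicate 1 (0.0663). *EPHB4* differed by -0.22 (adjusted P = 0.0305), which missed it in batch 2 (-0.21, adjusted P = 0.468) and without any of NRG-1 1 hour batch 1 replicates 1 and 2 (0.0721 and 0.0793), NRG-1 1 hour batch 2 replicate 1 (0.0956), NRG-1 4 hours batch 1 replicate 2 (0.0608), and NRG-1 4 hours batch 2 replicate 2 (0.106). *EFNB1* differed by 0.20 (adjusted P = 0.0995; 0.0222 under the replicate block), and *EFNA1* by -0.15 (adjusted P = 0.205; 0.0375 without NRG-1 4 hours batch 2 replicate 2).

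Ordered by mean CPM, *EPHA2* ran from EGF 1 hour through EGF 4 hours, NRG-1 1 hour, NRG-1 4 hours, NRG-1 5 minutes, CSS, and EGF 5 minutes to FBS. EGF 4 hours and NRG-1 1 hour did not differ beyond their spread (0.03, adjusted P = 0.809), nor did NRG-1 5 minutes, CSS, and EGF 5 minutes. The step from NRG-1 4 hours to NRG-1 5 minutes was 0.65 (adjusted P = 2.85e-06) and that from EGF 5 minutes to FBS 0.76 (adjusted P = 3.46e-07). For *EPHB2* the 2 groups at 4 hours led without a detectable difference between them (0.19, adjusted P = 0.422), and the next group, EGF 1 hour, lay lower by a step of 0.70 (adjusted P = 5.79e-07). For *EFNA4*, EGF 1 hour lay below FBS (a step of 0.22, adjusted P = 0.0327) and NRG-1 4 hours below EGF 1 hour (0.36, adjusted P = 0.00154). For *EPHB4* the step from NRG-1 1 hour to FBS was 0.20 (adjusted P = 0.0397). In *EPHB3*, *EFNA1*, *EFNB1*, and *EFNB2* no neighboring groups differed at an adjusted P value below 0.05 in edgeR. The order itself was read from these values.

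Over the 8 group means of batch-adjusted log2 CPM, and among the 12018 genes whose average log2 CPM reached 1, the genes most like *EPHA2* were *TSPYL2* (Pearson's *r* = 0.996), *CDKN1A* (0.996), which encodes the cell-cycle inhibitor p21, and *DLL1* (0.992), a Notch ligand. Those most like *EPHB2* were *SH3TC1* (0.9996), *DGKQ* (0.998), and *TMEM8A* (0.998). Among the members, *EPHB2* correlated with *EFNB1* (*r* = 0.92) and inversely with *EFNA4* (*r* = -0.97), whereas *EPHA2* and *EPHB2* had *r* = 0.55. The member most like *EPHA2* was *EFNA1* (*r* = 0.84), which passed in no comparison, and *EPHB3* and *EPHB4* had *r* = 0.86. These are descriptions over 8 points that share libraries, and the points at 4 hours set most of the range for *EPHB2*.

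The rest of the family was read from a list of the other 14 Eph and ephrin genes, of which 13 were tested (*EPHA4* was not). At 1 hour 0 of 13 passed with either ligand (1 and 1 at an unadjusted P value below 0.05, edgeR). At that time 9.51% (EGF) and 6.73% (NRG-1) of all genes passed. At 4 hours, 4 were higher and 3 lower with EGF, and 3 were higher and 3 lower with NRG-1, near the shares of all genes that passed (49.2% and 42.6%). The DEGs among them were *EPHA1*, a receptor of A-class ephrins, and *EPHB6*, a receptor that lacks kinase activity. Both were DEGs with either ligand, where 9.56% (EGF) and 7.41% (NRG-1) of all genes were. *EPHA1* rose from 15.6 ± 1.47 CPM in CSS to 47.4 ± 6.06 CPM with EGF and 42.7 ± 7.30 CPM with NRG-1 (log2 fold changes 1.61 and 1.45, adjusted P = 6.90e-16 and 9.39e-15). Among the members the highest values at that time were the 1.01 and 0.82 of *EPHB2*. *EPHB6* rose from 0.539 CPM in CSS (0.231 to 1.06) to 6.21 ± 1.87 and 4.10 ± 1.41 CPM (3.55 and 2.96, adjusted P = 2.96e-14 and 2.82e-12). The lowest 4-hour library of *EPHB6* held 2.65 CPM, so that the groups did not overlap. *EPHA1* and *EPHB6* stayed DEGs in 20 of 20 alternatives, although on log2(TPM + 1) the change of *EPHB6*, a low gene, was as small as 1.59 with EGF and 1.16 with NRG-1.

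A list of 43 partners of Eph signaling (adaptors, exchange factors, kinases, phosphatases, and proteases), of which 41 were tested, was read in the same way. At 1 hour 2 were higher and 0 lower with either ligand. Of all genes, 6.00% were higher and 3.51% lower at 1 hour of EGF, and 4.45% and 2.28% at 1 hour of NRG-1. At 4 hours 13 were higher and 9 lower with EGF, and 10 were higher and 9 lower with NRG-1, and 0 were DEGs at either time (edgeR; 26 and 22 at an unadjusted P value below 0.05 at 4 hours, and 5 and 3 at 1 hour). At 4 hours 49.2% and 42.6% of all genes passed, so that the partners lay near the background at that threshold. Of all genes, 9.56% and 7.41% were DEGs at 4 hours of EGF and of NRG-1, and 1.72% and 0.989% at 1 hour. In FBS 7 were higher and 19 lower than in CSS, where 26.0% and 26.8% of all genes were, and 4 were DEGs, where 8.71% of all genes were. The median log2 fold change of the list at 4 hours was 0.11 with either ligand.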

How the data were processed

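RNA-seq libraries of LNCaP cells (8 groups of 4, with 2 replicates in each of 2 batches) were analyzed. Per the labels, cells were moved to charcoal-stripped serum the day before treatment. Per the submitters' processing notes, reads were trimmed with Trimmomatic 0.36 and aligned to hg19 with STAR 2.7.0f, and genes were quantified with RSEM. The annotation is not given in the sources used here. The authors deposited expected counts per gene, which RSEM estimates by dividing shared reads, and TPM, which is scaled for transcript length within each library.

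Expected counts were rounded (11.2% of values were not whole), and a gene was tested where 3 libraries or more held 5 counts or more. Counts were normalized with the trimmed mean of M values and fitted in edgeR 4.0.16 (R 4.3.3) by quasi-likelihood, with group and batch as terms over 32 libraries. P values were adjusted by Benjamini-Hochberg over the 16995 genes tested. A gene was said to have risen, fallen, or differed at an adjusted P value below 0.05, and a DEG also had a log2 fold change beyond 1. DESeq2 1.42.0, limma 3.58.1 on log2 TPM (pseudocount 1 or 0.1), other filters and scalings, each batch alone, and each library left out served as alternatives. The scripts were tested on simulated data. Same-numbered libraries deviated together (Pearson's *r* from 0.13 to 0.57 in 112 of 112 pairs), so the replicate number was used as a block in an alternative. With batch means removed, 35 of 112 pairs remained over 0.1.

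The members and gene lists were chosen with earlier results of these data known. Members were all named. Of the other family genes and partners, those with the largest changes among DEGs at 1 hour and 4 hours of either ligand were named, up to 4 per list, and for members that were DEGs with a ligand, the 3 most alike genes. One prostate marker is not reported here.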

Additional observations from a re-analysis of the deposited data

Results flagged for a closer look

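*EPHB3* was at 10.5 CPM in FBS batch 1 replicate 2, apart from the other FBS libraries at 12.2 to 12.4 CPM. *EFNA1* was at 81.3 CPM in NRG-1 5 minutes batch 2 replicate 2, apart from the other libraries of that group at 64.1 to 65.3 CPM. Dixon's test was applied to 64 sets of 4 libraries (8 members in 8 groups) and marked these 2, where chance gives about 3. *EFNA1* was also highest in batch 2 replicate 2 at 5 minutes of EGF (81.5 CPM). The same held at 1 and 4 hours of NRG-1 (89.6 and 88.1 CPM), and without ligand in FBS (70.5 CPM) and CSS (75.04 CPM). It held narrowly at 1 hour of EGF (79.1 CPM, against 78.3 in batch 2 replicate 1). It did not hold at 4 hours of EGF (71.0 CPM, against 73.2 in batch 1 replicate 1). On TPM the marked *EFNA1* library held 90.4, and the others of its group 86.5 to 87.4. The cause was not tested. The change of *EPHA2* at 1 hour differed between EGF and NRG-1 by 0.37 on the log2 scale, in a direct test of the ligands that passed the threshold in the full fit and missed it within either batch.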

How the results depend on the processing

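Over 104 results (8 members in 13 comparisons), 2144 alternative values were computed. Of these, 2011 kept the side of the threshold, 104 lost the call, and 29 gained one. The sign changed in 178, called in neither fit, and in 0 of the called values. The counts below are members out of 8.

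Without the fold limit, the DEG counts became 2 at EGF 1 hour, 7 at EGF 4 hours, 1 at NRG-1 1 hour, 5 at NRG-1 4 hours, 5 in FBS, 1 for EGF versus NRG-1 at 1 hour, 6 for EGF 4 hours versus 1 hour, and 5 for NRG-1 4 hours versus 1 hour. In batch 1 alone they were 2 at EGF 4 hours and 1 at NRG-1 1 hour, where *EPHA2* passed the limit with log2 fold changes of 1.03 and 1.04, as it also did without EGF 4 hours batch 2 replicate 2 (1.01) or NRG-1 1 hour batch 2 replicate 2 (1.02). The 3 limma fits on log2 TPM gave 0 at EGF 4 hours. Leaving out 1 library gave 0 to 2 at EGF 4 hours and 0 to 1 at NRG-1 1 hour.

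At an adjusted P value below 0.05, EGF 1 hour had 1 with no batch term, in batch 2 alone, and in limma. EGF 4 hours had 3 in batch 2 alone and 4 in limma, and NRG-1 4 hours had 3 in batch 2 alone. FBS had 3 in batch 1 alone, 1 in batch 2 alone, and 3 to 5 with 1 library left out. EGF versus NRG-1 at 1 hour had 0 with no batch term, with only the groups compared, in either batch alone, and in limma, and 0 to 1 with 1 library left out. At 4 hours this comparison had 1 with DESeq2, 1 under the replicate block, and 0 to 1 with 1 library left out. EGF 4 hours versus 1 hour had 2 in batch 2 alone. NRG-1 4 hours versus 1 hour had 2 with no batch term, 2 with only the groups compared, 1 in batch 2 alone, 3 in limma, and 2 to 5 with 1 library left out. The cause of these shifts was not tested, except that a batch alone has 2 libraries a group.

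With the replicate block, 3 members passed at EGF 1 hour, 7 at EGF 4 hours, 1 at NRG-1 1 hour, 6 at NRG-1 4 hours, and 6 in FBS, and the paired fit changed no call other than those printed with their results. Members had at least 173 counts per library, and the effect of depth was not tested. With 4 libraries a group, standard errors were near 0.09 on the log2 scale. Against CSS at 4 hours and in FBS, differences of about 0.2 lay at the edge of what could be called. Elsewhere larger ones were not called in the full fit, as for *EFNA4* at 1 hour of EGF against CSS (-0.23). The same held for *EPHA2* between the ligands at 4 hours (0.32).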

Other observations

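Of the 13 other family genes tested, 2 were higher and 8 lower in FBS than in CSS, where 26.0% and 26.8% of all genes were. Of the 13, 2 were DEGs, where 8.71% of all genes were. The genes of the wider family named here were picked after their values were seen. *EFNB3*, a transmembrane ephrin, was at 1.29 CPM in FBS and 3.95 CPM in CSS (log2 fold change -1.60, adjusted P = 6.97e-14, edgeR). *EPHA5* was at 0.632 and 0.314 CPM (1.02, adjusted P = 0.00385), and in batch 2 alone the adjusted P value was 0.417. It is a low gene, with 8 to 77 counts in a library. Among the partners, the exchange factors *VAV3* (0.778 and 2.63 CPM, -1.71) and *KALRN* (1.27 and 4.27 CPM, -1.74) were lower in FBS, as was *GRIP1*, a scaffold that binds B-class ephrins (-1.25, adjusted P = 0.186 in batch 2 alone). *GRIP1* is likewise a low gene, with 6 to 50 counts in a library. The exchange factor *TIAM1*, near the detection limit at 0.248 and 0.0974 CPM, was higher by 1.26, with an adjusted P value of 0.945 in batch 2 alone.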
